A study of Rattus norvegicus with 6 samples.

Results

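Interferon response genes were examined in cultured rat oligodendrocyte precursor cells (OPCs) with and without inhibition of RIPK1. The 9 genes were chosen by their symbols in the deposited table of 32883 genes and comprise 3 transcription factors (Irf7, Irf1 and Stat2) and 6 antiviral effectors (Mx1, Mx2, Ifit1, Ifit2, Ifit3 and Isg15). All 9 were found, and all 9 were among the 14670 genes that passed the filter on low counts. The cultures came from the cerebral cortices of 2 newborn (P0) Sprague Dawley rats per the labels, and OPCs were shaken off a mixed glial culture. Cells in the ZJU-37 group received 5 µM ZJU-37, a RIPK1 kinase inhibitor modified from necrostatin-1s, for 36 h per the labels (the methods give a shorter time), and cells in the DMSO group received the same volume of solvent. Both groups were kept in Neurobasal with B27 and N2, the labels name no genetic change and no added interferon or virus, and 3 libraries of poly-A RNA were sequenced per group.

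Interferons are secreted signals of infection whose receptors, through the kinases JAK1, JAK2 and TYK2, activate STAT factors. A complex that holds STAT2 and IRF9 binds the interferon-stimulated response element (ISRE) in front of antiviral genes, whereas interferon gamma acts mainly on the gamma-activated site (GAS). In the brain microglia respond strongly to interferon, and RIPK1, a kinase downstream of the TNF receptor, is known for its part in inflammatory and cell death signalling.

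The counts of a library summed to between 13935865 and 24097927, and 3 counts corresponded to at most 0.215 counts per 1e6 counts (CPM), a limit that covers counting error only. CPM values are scaled by TMM factors, and errors are SD over n = 3 libraries per group. The labels do not say whether the libraries came from separate animals or cultures, and the study calls them biological repeats in its methods and plate wells in a legend, so p-values measure the spread between these libraries, which may be partly technical. The 7 OPC markers measured, among them Pdgfra, Cspg4, Olig1 and Olig2, were all expressed and summed to between 3857 and 6075 CPM. Markers of other cells were present as well: the 8 oligodendrocyte markers summed to between 4817 and 22744 CPM, the 16 microglia markers to between 2301 and 5381 CPM and the 11 astrocyte markers to between 981 and 1759 CPM. In such a mixture, fewer cells of a type and less RNA per cell cannot be told apart.

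In OPCs given ZJU-37, 0 of the 9 interferon response genes differed from DMSO at an adjusted p-value under 0.05 (quasi-likelihood test of edgeR, Benjamini-Hochberg over all 14670 genes), against 15.0% of all tested genes, and 0 of the 9 had an unadjusted p-value under 0.05, against 28.7%. DESeq2 and limma-voom also called 0 of the 9, while they called 2655 of 14654 and 2192 of 14670 tested genes. The fitted log2 fold changes (ZJU-37 minus DMSO) lay between -0.18 for Irf7 and 0.16 for Isg15, 4 above and 5 below 0, with a median of -0.05, beside a median of -0.03 over all tested genes. The 2 groups overlapped for each of the 9 genes, whereas they did not overlap for 35.2% of the tested genes. The 95% intervals were wide: for Ifit3 the interval of the fold ran from 0.441 to 2.04, and for Irf1, the narrowest, from 0.705 to 1.29.

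Where the RefSeq promoter table held a member, its upstream sequence was searched for the elements named above. The table (build GRCr8) held 5 of the 9 genes: Irf7, Irf1, Stat2, Mx1 and Ifit3. The ISRE core was searched as GAAANNGAAA and the GAS element as TTCNNNGAA, on both strands, in the 250 bases before the annotated start. The ISRE core was found for Irf7 and Ifit3, and in 3.41% of the 33469 promoters of the table. The GAS element was found for Irf1, and in 7.67% of these promoters. Neither was found for Mx1 or Stat2, which says only that these letters are not in this window. The 3 stretches of 60 bases that hold a match are shown because they place the 2 elements of the pathway in front of members, with the match in capitals and the stretch in the direction of the gene. For Irf7 and Ifit3 the capitals are the reverse complement of the searched letters, since the match is on the strand opposite to the gene. The first base of the match lies 69 bases before the start of Irf7, 44 before that of Ifit3 and 142 before that of Irf1. A match is a description of the letters and not a measured binding site.
Irf7, chr1:205800058-205800117, minus strand: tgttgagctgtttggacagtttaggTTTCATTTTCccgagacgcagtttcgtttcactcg
Ifit3, chr1:241527257-241527316, plus strand: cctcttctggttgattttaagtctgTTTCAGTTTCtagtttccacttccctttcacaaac
Irf1, chr10:38417767-38417826, plus strand: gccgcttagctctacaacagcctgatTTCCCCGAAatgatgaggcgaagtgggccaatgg

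Irf7, the factor that amplifies interferon production after a first stimulus and one of the 2 genes with an ISRE core above, was expressed at 446, 674 and 731 CPM across DMSO replicates 1 to 3 and at 286, 662 and 686 CPM across ZJU-37 replicates 1 to 3. Replicate 1 was low in both groups, and the other 4 libraries lay close together. The means were 617 ± 151 CPM and 545 ± 224 CPM, a log2 fold change of -0.18 with a standard error of 0.35 (adjusted p = 0.790, edgeR). The annotated span of Irf7 overlaps that of Phrf1 on the opposite strand, which had 12204 counts in all libraries together against 67369 for Irf7, and whether the counting used strand is not given in the sources used here. Irf1, which carries the GAS element and is induced by interferon gamma, was expressed at 33.9, 46.1 and 45.1 CPM across DMSO replicates 1 to 3 and at 30.7, 44.7 and 43.9 CPM across the ZJU-37 replicates. It varied least of the 9 genes, and its replicate 1 libraries were again the lowest of each group. Its log2 fold change was -0.07 with a standard error of 0.18 (adjusted p = 0.843, edgeR). Stat2, the partner of IRF9 in the complex that binds the ISRE, was expressed at 193, 226 and 252 CPM with DMSO and at 156, 251 and 272 CPM with ZJU-37, in the order of the replicate numbers. Both groups had their lowest value in replicate 1, and the ZJU-37 values spanned those of the DMSO group. The means of 224 ± 29.2 CPM and 226 ± 61.7 CPM gave a log2 fold change of 0.02 with a standard error of 0.22 (adjusted p = 0.972, edgeR).

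**Figure D1:**
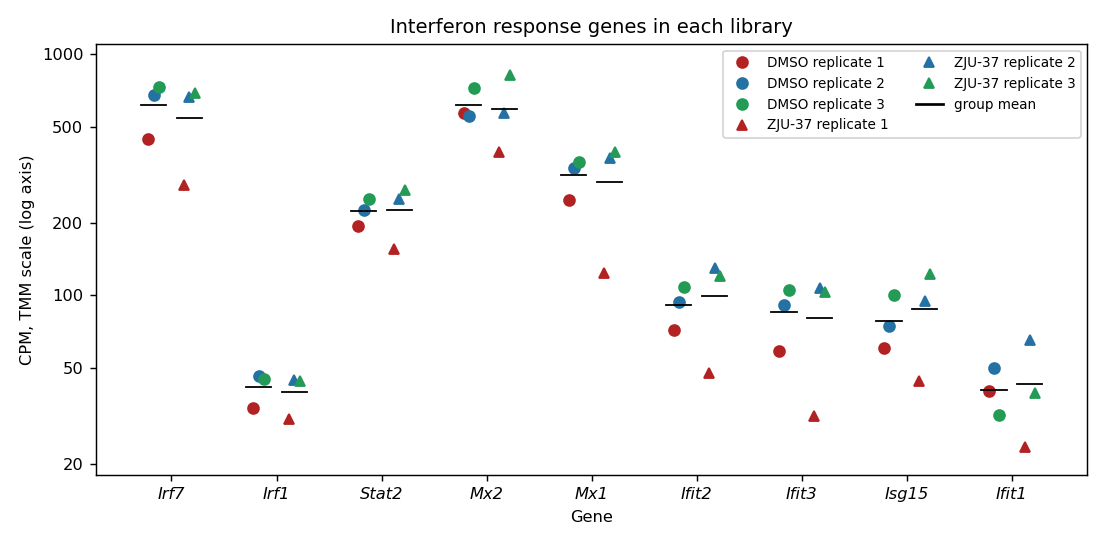
CPM on the TMM scale (log axis) of the 9 genes in each library, with circles for DMSO, triangles for ZJU-37, colours for the replicate number and lines for the group means (n = 3 libraries each). The red triangle of ZJU-37 replicate 1 is the lowest point of every gene, for example 23.5 CPM for Ifit1 and 123 CPM for Mx1.

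Mx1 and Mx2 encode dynamin-like GTPases that trap incoming viral components, and they are neighbours on chromosome 11, where the authors' table lists Mx1 from 37891156 to 37914983 on the minus strand and Mx2 from 38035450 to 38059950 on the plus strand (its build is not named). Mx1 was expressed at 247, 338 and 357 CPM across DMSO replicates 1 to 3 and at 123, 370 and 393 CPM across ZJU-37 replicates 1 to 3. The ZJU-37 group thus held both the lowest value and the 2 highest ones. Its means were 314 ± 58.8 CPM and 295 ± 149 CPM, a log2 fold change of -0.09 with a standard error of 0.42 (adjusted p = 0.918, edgeR). Mx2 was expressed at 567, 551 and 723 CPM with DMSO and at 392, 567 and 818 CPM with ZJU-37. Here replicate 3 was the highest of each group and replicate 2 the lowest of the DMSO group. The log2 fold change of Mx2 was -0.05 with a standard error of 0.27 (adjusted p = 0.926, edgeR). How reads shared by related genes such as Mx1 and Mx2 were counted is not given in the sources used here.

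The IFIT proteins bind viral RNA that lacks the cap methylation of host transcripts. Their genes lie together on chromosome 1 in the authors' table, Ifit2 from 252894663 to 252900726, Ifit3 from 252906234 to 252911382 and Ifit1 from 252944103 to 252946170, all on the plus strand. Ifit1 was expressed at 40.1, 49.8 and 31.7 CPM across DMSO replicates 1 to 3 and at 23.5, 65.5 and 39.2 CPM across the ZJU-37 replicates. It was the only member with its lowest DMSO value in replicate 3, and replicate 2 was its highest library in both groups. Ifit2 was expressed at 72.0, 94.0 and 108 CPM with DMSO and at 47.5, 129 and 121 CPM with ZJU-37. Ifit3, the other gene with an ISRE core, was expressed at 58.5, 91.3 and 105 CPM with DMSO and at 31.6, 107 and 103 CPM with ZJU-37. In both genes ZJU-37 replicate 1 lay well below all other libraries. The log2 fold changes of Ifit1, Ifit2 and Ifit3 were 0.08, 0.12 and -0.08, with standard errors of 0.37, 0.37 and 0.46, and the smallest adjusted p-value among them was 0.874 (edgeR). Isg15, a ubiquitin-like protein that is conjugated to other proteins during the response, was expressed at 60.3, 74.2 and 99.9 CPM with DMSO and at 44.1, 94.8 and 123 CPM with ZJU-37. Its values had the same order of replicates in both groups, with replicate 1 lowest and replicate 3 highest. Its log2 fold change of 0.16 was the largest positive one of the 9 (standard error 0.37; adjusted p = 0.825, edgeR).

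Per length of the gene model, Irf7 was the most abundant member at a mean of 294 CPM per kilobase over the 6 libraries, followed by Mx2 at 206, Mx1 at 91.9, Isg15 at 62.9, Stat2 at 55.9, Ifit3 at 40.4, Ifit2 at 27.9, Ifit1 at 20.1 and Irf1 at 19.9. The ranges over the 6 libraries separated only Mx2 from Mx1 (at least 134 against at most 119 CPM per kilobase), and every other pair of neighbours in this order overlapped. The 9 genes together made up 0.118% to 0.261% of each library.

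The differences within the replicate pairs did not run in 1 direction. In the pair of replicate 1, all 9 genes were lower with ZJU-37, with log2 differences from -0.14 for Irf1 to -1.0 for Mx1 and a median of -0.60. In the pair of replicate 2, 7 of the 9 were higher, up to 0.46 for Ifit2, and in the pair of replicate 3, 6 of the 9 were higher, up to 0.30 for Ifit1 and Isg15. The medians of these pairs were 0.15 and 0.14. Over all tested genes the pair medians were -0.06, 0.00 and -0.01. The 6 genes that were lower in the pair of replicate 1 and higher in both other pairs were Ifit1, Ifit2, Isg15, Mx1, Mx2 and Stat2, while 8.89% of all tested genes had this pattern. Irf7 and Irf1 were lower in all 3 pairs, by at most 0.09 in the pairs of replicates 2 and 3, and Ifit3 was higher only in the pair of replicate 2. The difference between the pairs was not tested, since each pair is 1 library against 1.

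**Figure D2:**
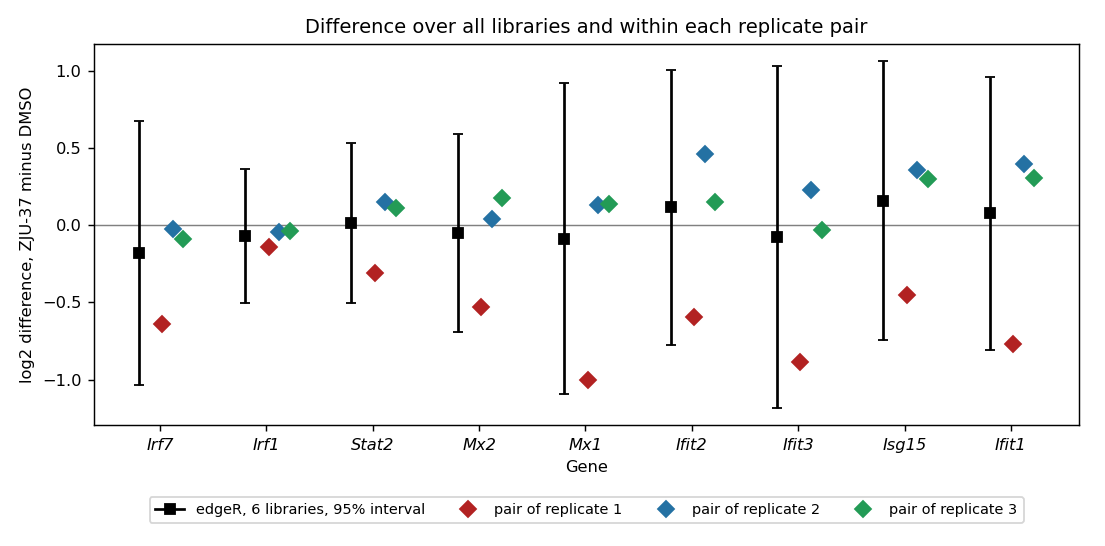
Log2 difference (ZJU-37 minus DMSO) of the 9 genes, with black squares for the edgeR fold change over 6 libraries, bars for its 95% interval and diamonds for the difference within each replicate pair. Every black interval includes 0, and the red diamonds of the pair of replicate 1 lie between -0.14 and -1.0, below the diamonds of both other pairs for every gene.

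Across genes, deviations from the group mean were shared by libraries of the same replicate number, so the replicate number was also fitted as a block. With the block 0 of the 9 genes passed the adjusted threshold (edgeR), against 32.1% of all tested genes, and the smallest adjusted p-value was 0.277, for Irf7 with a log2 fold change of -0.25. Without ZJU-37 replicate 1, 0 of the 9 passed the adjusted threshold and 1 (Ifit2) had an unadjusted p-value under 0.05 (edgeR). All 9 fold changes were then above 0, from 0.10 for Irf1 to 0.49 for Isg15. That library was the lowest for all 9 genes, so leaving it out alone was bound to raise the fold changes, and DMSO replicate 1 stayed in. Without both replicate 1 libraries and with the block, a fit chosen after the data had been seen and resting on 2 pairs, 5 of the 9 were higher at an adjusted p-value under 0.05 (edgeR). In that fit 33.5% of all tested genes passed, and 18.5% of all tested genes passed as higher with ZJU-37. The 5 genes were Isg15, Ifit1, Ifit2, Mx1 and Stat2, with log2 fold changes of 0.33, 0.36, 0.31, 0.14 and 0.14 and adjusted p-values of 4.15e-05, 3.09e-04, 0.0124, 0.0138 and 0.0187. Irf7 and Irf1 stayed just below 0 there, at -0.05 and -0.03. Leaving out both replicate 1 libraries without the block gave 0 calls among the 9 and 1 unadjusted p-value under 0.05, with adjusted p-values from 0.0671 for Ifit2 to 0.802 for Mx2 (edgeR), so the 5 calls were made only with the block and the omission together.

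The 9 genes varied more between libraries of a group than most genes did. Within a group, the SD of log2 CPM was between 0.28 for Irf1 and 0.77 for Ifit3, with a median of 0.57, against a median of 0.11 over the 8375 tested genes averaging 20 CPM or more. Their SDs lay between the 88.6th and the 99.7th percentile of these genes. The spread was larger with ZJU-37 (median SD of the 9 genes 0.74) than with DMSO (median 0.30). From its lowest to its highest ZJU-37 library, Ifit3 differed 3.39-fold and Mx1 3.19-fold, whereas Irf1 differed 1.46-fold. ZJU-37 replicate 1 was the lowest of the 6 libraries for all 9 genes, as it was for 26.3% of all tested genes, and DMSO replicate 1 was the lowest DMSO library for 7 of the 9, against 31.8%.

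**Figure D3:**
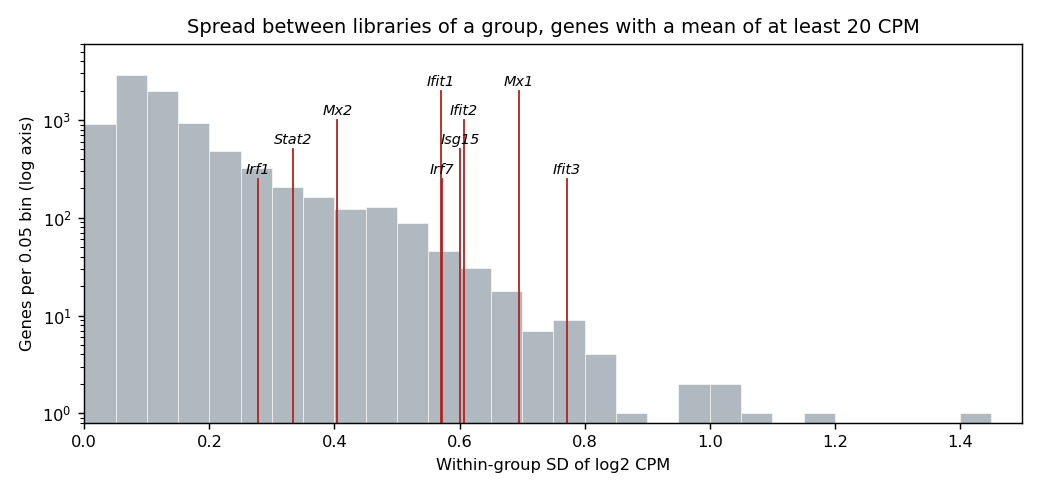
Histogram of the within-group SD of log2 CPM for the 8375 genes averaging 20 CPM or more (genes per bin, log axis), with red lines at the 9 interferon response genes; 5 genes lie beyond the right end of the axis. Irf1 at 0.28 and Stat2 at 0.33 stand nearest to the bulk of the genes, and Ifit3 at 0.77 lies farthest to the right.

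Microglia markers followed the replicate number as well. The 9 interferon response genes summed to 1718, 2146 and 2453 CPM across DMSO replicates 1 to 3 and to 1135, 2291 and 2599 CPM across ZJU-37 replicates 1 to 3. The 16 microglia markers, among them Csf1r, Aif1 and C1qa, summed to 3140, 5381 and 4309 CPM and to 2301, 4727 and 3632 CPM in the same order. Both sums were lowest in replicate 1 of each group and lowest of all in ZJU-37 replicate 1. They differed in which replicate was highest, replicate 3 for the interferon response genes and replicate 2 for the microglia markers. The pairs differed too, since the microglia sum was lower with ZJU-37 in all 3 pairs (0.733-, 0.878- and 0.843-fold) and the interferon sum only in the pair of replicate 1 (0.661-, 1.07- and 1.06-fold). Without the block, 0 of the 16 microglia markers passed the adjusted threshold, against 15.0% of all tested genes (edgeR). With the block 8 of the 16 were lower, against 15.9% of all tested genes (edgeR). The 7 fibroblast and mural markers were also lowest in ZJU-37 replicate 1, at 28.2 CPM against 46.1 to 114 CPM elsewhere, and 6 of them were tested. The astrocyte sum was lowest in ZJU-37 replicate 2 and the oligodendrocyte sum in ZJU-37 replicate 3. The oligodendrocyte sum was lower with ZJU-37 in all 3 pairs (0.383-, 0.619- and 0.422-fold). The OPC marker sum was higher in all 3 (1.36-, 1.13- and 1.27-fold). Its highest value, 6075 CPM, was in ZJU-37 replicate 1, where the interferon response genes were lowest. The 7 OPC markers did not all rise. Without the block 4 were higher and 2 lower at the adjusted threshold (edgeR), against 9.43% and 5.58% of all tested genes. The part of these cells in the interferon response values was not tested.

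**Figure D4:**
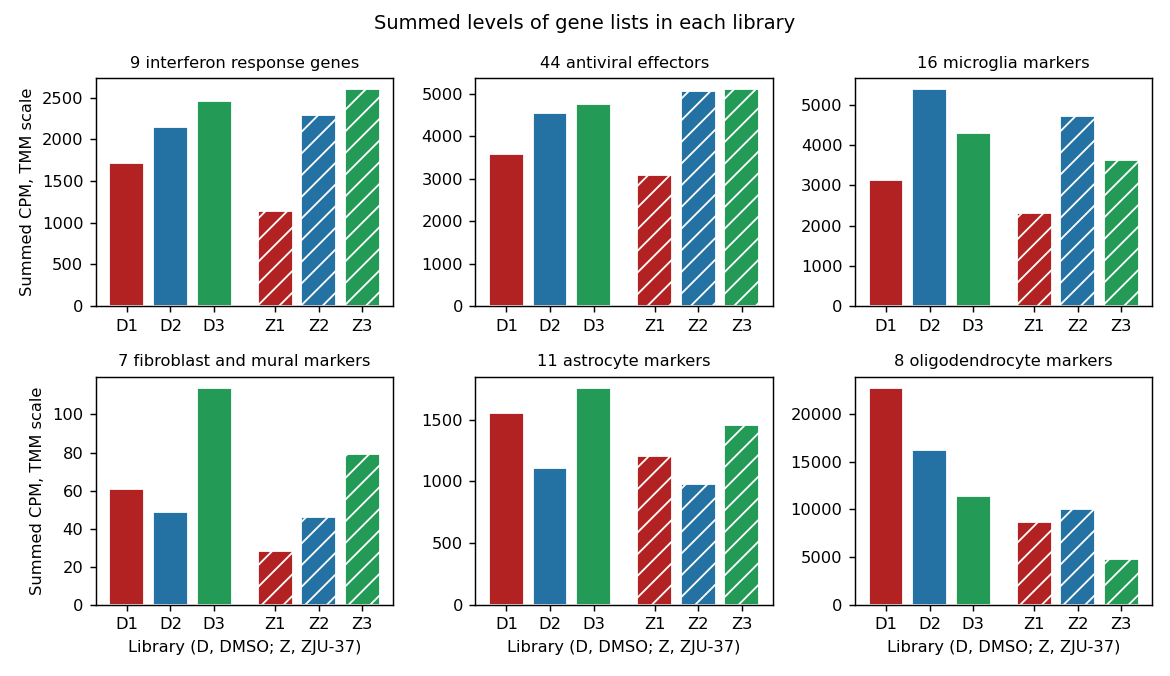
Summed CPM (TMM scale, linear axis from 0) of 6 gene lists in the DMSO (D, plain) and ZJU-37 (Z, hatched) libraries, coloured by replicate number. The bar of ZJU-37 replicate 1 is the lowest of its panel for the interferon response genes (1135 CPM), antiviral effectors (3086 CPM), microglia markers (2301 CPM) and fibroblast and mural markers (28.2 CPM), and not for the astrocyte and oligodendrocyte markers.

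The other genes of the pathway were taken from lists of 147 genes, of which 135 were found in the table and 119 were tested. In the edgeR test 1 of the 119 was higher (background 9.43%) and 0 were lower (background 5.58%) with ZJU-37. With the replicate block 8 were higher and 18 were lower, against 16.2% and 15.9% of all tested genes. The median log2 fold change of the 119 genes was -0.03, as that of all tested genes, and their pair medians were -0.28, 0.10 and 0.02. ZJU-37 replicate 1 was the lowest library for 92 of the 119.

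Interferons themselves were almost without reads. The 10 ligand genes measured had 12 counts in all 6 libraries together, and 6 of them, Ifng and the type I genes Ifna4, Ifna5 and Ifna11 included, had 0 counts in every library, which allows up to 0.215 CPM in the smallest library. Ifnb1 had 5 counts in ZJU-37 replicate 2, 1 in ZJU-37 replicate 3 and 0 elsewhere. Of the 9 receptor chains and kinases, 0 passed the threshold, against 15.0% of all tested genes (edgeR). Ifnlr1, the specific chain of the lambda interferon receptor, had at most 1.57 CPM in a library, below the other 8 in every library. With the block 3 of the 9 fell, against 15.9% of all tested genes (edgeR): Ifngr1, the ligand-binding chain of the interferon gamma receptor, by 0.30 on the log2 scale (adjusted p = 0.00470), Il10rb, a chain shared with the lambda interferon receptor, by 0.33 (adjusted p = 0.00852) and the kinase Jak1 by 0.15 (adjusted p = 0.0488).

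Among the other STAT and IRF factors 0 of 8 passed, against 15.0% of all tested genes (edgeR). With the block 2 of the 8 fell, against 15.9%, and 0 rose, against 16.2%. Irf8 and Irf5, factors typical of microglia and macrophages, fell by 0.36 and 0.41 on the log2 scale (adjusted p = 0.00336 and 0.00157, edgeR). Irf9, the DNA-binding partner of STAT2, had 92.8 ± 4.75 CPM with DMSO and 93.1 ± 16.0 CPM with ZJU-37. Stat3, the most abundant of these factors per length, had 456 ± 35.8 CPM with DMSO and 485 ± 28.9 CPM with ZJU-37. In edgeR without the block and over all 6 libraries, the sensors of nucleic acid and their adaptors held the only call among the 119 genes. That was 1 of 14 genes, against 15.0% of all tested genes. DESeq2 called 3 of the 119, which were Cgas, Socs3 and Psmb10 (adjusted p = 0.00761, 0.0253 and 0.0462). Cgas, the sensor of DNA in the cytosol, rose from 9.08 ± 1.48 CPM to 14.7 ± 2.55 CPM, a log2 fold change of 0.69 with a standard error of 0.18 (adjusted p = 0.0480, edgeR, and 0.00132 with the block), with differences of 0.59, 0.58 and 0.88 in the 3 pairs. The call was close to the threshold: leaving out 1 library at a time gave adjusted p-values from 0.0234 to 0.159 (edgeR), and only the fit without ZJU-37 replicate 1 stayed under 0.05, while limma-voom gave 0.0529. With the block 2 of the 14 rose, against 16.2% of all tested genes, and 4 fell, against 15.9% (edgeR). Beside Cgas, Ifih1, a sensor of long double-stranded RNA, rose (0.41, adjusted p = 0.00105, edgeR). Tlr9, Myd88, Tmem173 and Ikbke fell by between 0.30 and 0.41 (edgeR). Tlr7, the most abundant sensor per length, had a log2 fold change of -0.20, and Trim25, a ubiquitin ligase of the RNA sensor pathway, one of 0.02, with adjusted p-values of 0.794 and 0.951 (edgeR).

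The antiviral effectors, the largest list with 44 tested genes, had pair medians of -0.34, 0.16 and 0.10. Past the adjusted threshold were 0 of the 44, against 15.0% of all tested genes (edgeR). With the block 4 of the 44 rose, against 16.2% of all tested genes, and 3 fell, against 15.9% (edgeR). Isg20, Lgals9, Ifi27l2b and Slfn13 rose, with log2 fold changes of 0.47, 0.37, 0.40 and 0.23, and Epsti1, Ifi30 and Ifitm2 (the last named to complete the count, after its value was seen) fell by 0.38, 0.29 and 0.24. Ifi27, the most abundant effector per length, had 556 ± 42.6 CPM with DMSO and 597 ± 54.7 CPM with ZJU-37, and its adjusted p-value was 0.547 (edgeR). The genes of ISG15 conjugation had 0 of 4 past the threshold with or without the block, against 32.1% and 15.0% of all tested genes (edgeR). Usp18, the protease that removes ISG15 and restrains the receptor, had log2 differences of -0.76, 0.13 and -0.01 in the 3 pairs, and Ube2l6, the conjugating enzyme of ISG15, had -0.05, 0.57 and 0.24.

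The interferon gamma GTPases, which attack vacuoles that hold pathogens, had 0 of 8 past the threshold, against 15.0% of all tested genes (edgeR). With the block 1 of the 8 rose, against 16.2%, and 1 fell, against 15.9%. Irgm rose by 0.19 on the log2 scale (adjusted p = 0.0471, edgeR), and Gbp6 fell by 0.29 (adjusted p = 0.0245, edgeR). The most abundant of these genes per length, Gbp2 and Ifi47, had log2 fold changes of -0.05 and -0.15. Among 16 tested genes of antigen presentation 0 passed in edgeR without the block, against 15.0% of all tested genes. DESeq2 called Psmb10 (adjusted p = 0.0462). With the block 2 of the 16 fell, against 15.9% of all tested genes, and 0 rose, against 16.2% (edgeR). Psmb10, an immunoproteasome subunit, fell by 0.46 (adjusted p = 5.09e-04, edgeR), and Cd74, the invariant chain of MHC class II, fell by 0.52 (adjusted p = 0.00410, edgeR). B2m, the light chain of MHC class I, had 2205 ± 410 CPM with DMSO and 2091 ± 533 CPM with ZJU-37 (adjusted p = 0.860, edgeR), and the log2 fold change of the class I gene RT1-A2 was -0.22. Of the 6 interferon-induced chemokine genes 0 passed, against 15.0% of all tested genes (edgeR). With the block 1 of the 6 fell, against 15.9%, and 0 rose, against 16.2%. This was Cxcl9, which fell by 0.86 (adjusted p = 0.0319, edgeR) from a low level of 3.18 ± 1.93 CPM. Ccl2 and Ccl7, which attract monocytes and are the most abundant of the 6 per length, had log2 fold changes of -0.20 and -0.12 (adjusted p = 0.729 and 0.864, edgeR). Within the pairs of replicates 1 to 3, Ccl2 differed by -0.61, 0.03 and -0.16 and Ccl7 by -0.72, 0.11 and 0.0064. Of the 10 feedback inhibitors 0 passed in edgeR without the block, against 15.0% of all tested genes. Socs3, which is induced by STAT3 and blocks cytokine receptors, was the nearest to the threshold (adjusted p = 0.0712, edgeR), and DESeq2 called it (adjusted p = 0.0253). It had 16.6 ± 2.65 CPM and 23.9 ± 3.60 CPM, with differences of 0.53, 0.55 and 0.51 in the 3 pairs. With the block 1 of the 10, Socs3, rose (adjusted p = 0.00119, edgeR), against 16.2% of all tested genes. The phosphatases Ptpn6 and Ptpn11, 2 of the 10 against 15.9%, fell with the block by 0.32 and 0.19 (adjusted p = 0.0225 and 0.0444, edgeR).

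**Figure D5:**
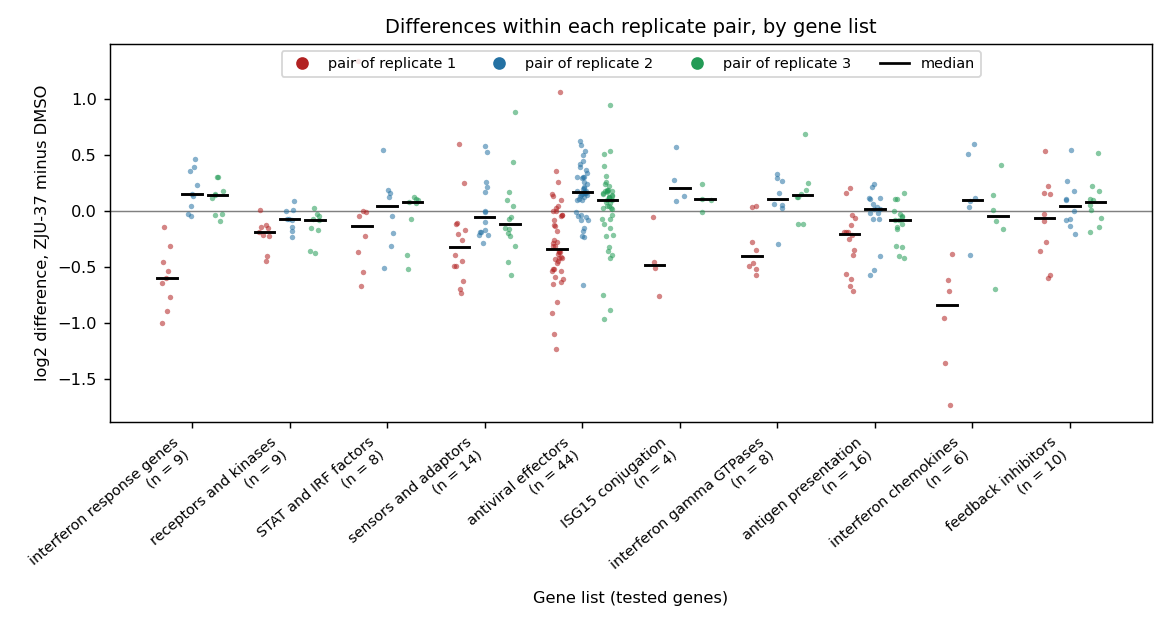
Log2 difference (ZJU-37 minus DMSO) within each replicate pair for every tested gene of the 10 lists, with 1 point per gene, colours for the pair and black lines for the list medians. The median of the pair of replicate 1 is the lowest of the 3 in each list, at -0.60 for the 9 interferon response genes and -0.84 for the chemokines.

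Outside these lists, the tested genes averaging 5 CPM or more whose log2 CPM over the 6 libraries was most like the mean standardised profile of the 9 genes were RGD1310553, Ccl12, MGC108823, Lrp4 and Ogfrl1, with Pearson's r between 0.992 and 0.999 over 6 libraries scaled together, chosen from 11487 genes. A like profile was common, since 640 of the 11487 genes had an r over 0.9 with it. Of the 5 named genes, Ccl12, a chemokine, followed the pattern. It had 9.72, 12.8 and 15.9 CPM across DMSO replicates 1 to 3 and 5.62, 16.9 and 18.4 CPM across the ZJU-37 replicates. RGD1310553 had a like order over a narrow range, from 39.3 CPM in ZJU-37 replicate 1 to 44.7 CPM in ZJU-37 replicate 2. Among the 9 genes themselves, r with this profile was lowest for Ifit1 at 0.688 and lay between 0.847 and 0.995 for the others. A high r is built in here, because the profile is the mean of these same 9 genes. From gene to gene among the 9, r ran from 0.285 to 0.992.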

How the data were processed

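RNA-seq was read from 3 DMSO and 3 ZJU-37 libraries, grouped by the labels. The deposited table holds whole-number read counts per gene that the authors made, and FPKM values beside them, with HISAT2 2.0.5, StringTie 1.3.3b and featureCounts 1.5.0 named in the submitters' processing notes. The genome build, the strand setting and the treatment of reads with several matches are not given in the sources used here. The deposited FPKM values served only as a check: counts divided by gene length and library total differed from them by a median ratio of 0.967 to 1.02 per library. The table's group means and the authors' own fold changes and p-values were not used.

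Counts were scaled by TMM, filtered with filterByExpr and tested with edgeR 4.0.16 (limma 3.58.1, R 4.3.3) by the robust quasi-likelihood test over 14670 genes, with Benjamini-Hochberg adjustment and a threshold of 0.05. A fold change is log2 of ZJU-37 over DMSO, and pair differences are of log2 CPM with a prior count of 2. Levels per length are CPM divided by the table's gene length in kilobases. On simulated counts for 14670 genes, 200 of them changed, edgeR recovered 88% of the changed genes and 7.85% of its calls were false. With the replicate block these were 85.5% and 12.3%. The changes put in were larger than any fitted change of the 9 interferon response genes, and no replicate effect was simulated. These shares therefore do not apply to changes as small as those of the 9 genes. The replicate numbers were taken as pairing the libraries, because deviations from the group mean correlated across genes at 0.39, 0.31 and 0.33 for libraries of the same number. The other correlations lay from -0.27 to -0.01. They add no support of their own, since deviations cancel within a group and positive values for 1 number force negative ones elsewhere. No pair of libraries within a group was alike within sampling noise, and libraries of different groups were not compared in this way.

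The 9 genes and all lists were chosen with earlier results of these data known. Named from each list were the genes passing the threshold with or without the block (at most 6 by p-value) and the 2 most abundant per length, and outside the lists the 5 genes most like the 9. Alternatives were RLE or no normalization, no filter or at least 10 counts in every library, DESeq2 1.42.0, limma-voom, the block and leaving out libraries. Promoter sequences were from RefSeq (GRCr8), and no coordinates were converted.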

Additional observations from a re-analysis of the deposited data

How the results depend on the processing

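The count of the 9 interferon response genes past the threshold was 0 under RLE normalization, library size alone, both other filters, DESeq2, limma-voom, the replicate block and every fit without 1 library or without both replicate 1 libraries. It was 5 with the replicate block and without both replicate 1 libraries, the alternative chosen after seeing the data. With the replicate block 4705 genes passed against 2201, and 26 of the 119 other pathway genes against 1; without both replicate 1 libraries as well these were 4917 and 45. Of the 119, DESeq2 called 3 and limma-voom 0. Fits leaving out libraries called 1259 genes (without ZJU-37 replicate 3; 1323 without DMSO replicate 2) to 1935 genes with 1 library out and 2038 without both replicate 1 libraries. Of the 119 they called 0 to 2 with 1 library out (0 without any 1 DMSO library or without ZJU-37 replicate 2 or 3, and 2 without ZJU-37 replicate 1) and 6 without both replicate 1 libraries. The cause of these changes was not tested.

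The direction of each of the 9 genes turned when some library was left out: the log2 fold changes ranged from -0.34 to 0.38 for Ifit1, -0.10 to 0.46 for Ifit2, -0.31 to 0.32 for Ifit3, -0.17 to 0.49 for Isg15, -0.35 to 0.30 for Mx1, -0.36 to 0.19 for Mx2, -0.38 to 0.14 for Irf7, -0.20 to 0.10 for Irf1 and -0.14 to 0.24 for Stat2. The same held for Irf9 (-0.063 to 0.16), Tlr7 (-0.45 to 0.15), Trim25 (-0.085 to 0.21), Usp18 (-0.30 to 0.20), Gbp2 (-0.29 to 0.19), Ifi47 (-0.47 to 0.17), B2m (-0.22 to 0.13), RT1-A2 (-0.42 to 0.085), Ccl2 (-0.46 to 0.076), Ccl7 (-0.47 to 0.19) and Ptpn6 (-0.48 to 0.0024). limma-voom turned Ifit1 (-0.0069), Stat2 (-0.017) and Irf9 (-0.0093), and the replicate block turned Stat2 (-0.011) and Irf9 (-0.0045). The block without the replicate 1 libraries turned Ifit3 (0.10), Mx1 (0.14), Mx2 (0.12), Usp18 (0.067), Gbp2 (0.10) and Ccl7 (0.063). Without the block, leaving out those libraries gave the same 6 turns, at 0.10, 0.14, 0.13, 0.067, 0.10 and 0.057. The smallest change of these 9 genes that could have been called was not tested.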

Other observations

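With the replicate block and without both replicate 1 libraries, chosen after seeing the data and resting on 2 pairs, 31 of the 119 other pathway genes were higher and 14 were lower with ZJU-37 (edgeR, adjusted p under 0.05), against 18.5% and 15.0% of all tested genes. Without the block, leaving out the same libraries gave 6 calls among the 119. Among the RNA and DNA sensors, Ifih1, Ddx58, Dhx58 and Cgas rose, with log2 fold changes of 0.49, 0.18, 0.19 and 0.74. Tlr9, Myd88 and Ikbke fell by 0.38, 0.29 and 0.31 in the same fit, as did Ifngr1 and Il10rb, by 0.25 and 0.27. These genes were named after their values were seen.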
